A study of Mus musculus with 12 samples.

Results

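The platelet-derived growth factor (Pdgf) and vascular endothelial growth factor (Vegf) genes were followed in cultured proximal tubule (PT) cells with and without TβRII, the type II TGF-β receptor encoded by Tgfbr2. The genes were fixed by name: the ligands Pdgfa, Pdgfb, Pdgfc and Pdgfd, the receptors Pdgfra and Pdgfrb, and the ligands Vegfa, Vegfb, Vegfc and Vegfd, 10 genes of the 25514 in the count files. RNA was sequenced in 12 libraries, 3 in each of 4 groups. TβRIIflox/flox PT cells (genotype H2ts6;Tgfbr2fl/fl) and TβRII-/- PT cells (H2ts6;Tgfbr2-/-) were each taken untreated, in their complete culture medium, and after 24 h of H2O2 in serum-free medium. The H2O2 groups therefore differed from the untreated groups in serum as well as in H2O2, and the part of each in a change cannot be told apart. The labels give the H2O2 dose as 200 mM and the methods of the study give a micromolar dose. All cells carried the temperature-sensitive large T antigen of the Immorto-mouse and came from mouse kidneys. Per the study's methods, the donors of the cells were male mice from a cross of the Immorto-mouse with Tgfbr2fl/fl mice. The mice of the study were males of 8 to 12 weeks, and no separate age is given for these donors. The cells were grown at 33 °C with 2.5% serum and interferon gamma and moved to 37 °C 5 days before the experiment. TβRII-/- cells had been made in culture from TβRIIflox/flox cells with Cre recombinase, so each genotype was 1 cell line. The deletion and any other difference between the 2 lines cannot be told apart. The methods of the study state 3 or more separate experiments or biological replicates as a general rule for work in culture. The labels do not say whether the 3 libraries of a group came from separate cultures, and p-values then measure the spread between libraries, which may be technical.

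Pdgf ligands are secreted dimers that signal through the receptor tyrosine kinases Pdgfrα and Pdgfrβ, which in the kidney are known mainly from pericytes, mesangial cells and fibroblasts. Pdgfa and Pdgfb are cut inside the cell, whereas Pdgfc and Pdgfd are secreted in a latent form that proteases such as tissue plasminogen activator, urokinase and matriptase open outside it. Vegfa acts through the endothelial receptor Kdr and is induced by hypoxia, Vegfb binds Flt1, and Vegfc and Vegfd are the ligands of Flt4 on lymphatic vessels. Tubular cells are thus known as a source of both families for the capillaries and stroma around the tubule.

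Gene totals ran from 15870155 to 20857618 counts per library, and 12971 genes passed the filter on low counts. Of the 10 genes 9 passed, and Pdgfra did not. Among 12 proximal tubule markers, Lrp2 (megalin) averaged from 11016 to 17634 normalized counts in the 4 groups and Aqp1 from 4421 to 14611, whereas Slc34a1, Slc22a6, Hnf4a and Miox had at most 3 counts in every library. The cells therefore carried part of the proximal tubule profile. Normalized counts are counts divided by the effective library size and multiplied by the mean effective size. The endothelial markers Pecam1 and Emcn, the pericyte markers Rgs5, Kcnj8 and Abcc9, the fibroblast markers Lum, Col1a2 and Col3a1, and the leukocyte markers Adgre1 and Cd3e also had at most 3 counts in every library. Other genes of these lists were counted. Group means ran from 61.8 to 137 normalized counts for the endothelial marker Egfl7, from 136 to 424 for Notch3 and from 44.6 to 118 for Gata3 among the pericyte and mesangial markers, from 14.3 to 57.1 for Col1a1, from 136 to 248 for Cd68 and from 176 to 246 for Wt1 and from 36.2 to 520 for Podxl among the podocyte markers. The epithelial cadherin Cdh1 averaged 1.80 normalized counts in untreated TβRIIflox/flox cells and 1111 in untreated TβRII-/- cells. The summed level of the 7 tubular epithelial markers ran from 22149 to 25991 in TβRIIflox/flox libraries and from 41861 to 44843 in TβRII-/- libraries. The 12 proximal tubule markers summed to 23189 to 34637 and to 16667 to 18581, the 7 pericyte and mesangial markers to 174 to 317 and to 424 to 604, the 5 fibroblast markers to 43.0 to 73.3 and to 16.5 to 43.8, the 5 leukocyte markers to 139 to 153 and to 222 to 273, and the podocyte marker Podxl averaged 36.2 in untreated TβRIIflox/flox and 520 in untreated TβRII-/- cells. Col1a1 made the largest part of the fibroblast sums. Dcn, another fibroblast marker, went the other way, from 1.46 to 5.51 between untreated genotypes and from 2.86 to 16.6 with H2O2. Cd68 made the largest part of the leukocyte sums and alone of that list passed the filter on low counts. The sums, Cdh1 and Podxl moved with the genotype, the fibroblast sums with a slight overlap, as did every difference between genotypes given here. The part of these levels in those differences was not tested. Tgfbr2 itself was counted in every library, at 7562 to 9248 normalized counts in untreated TβRIIflox/flox cells and 6358 to 6782 in untreated TβRII-/- cells. With H2O2 it stood at 13275 to 13918 and at 7116 to 7311. These counts cover the whole transcript and do not single out the deleted part, so they do not check the deletion.

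The promoter windows of 5 ligand genes are shown because these genes, chosen with their values in view, gave the clearest patterns: Pdgfc, Pdgfd and Vegfc were lower in TβRII-/- cells, and Vegfb and Vegfd were higher there and rose with H2O2 in both genotypes. Each line is a window of 250 bases taken with RefSeq on GRCm38.p6, read 5′ to 3′ on the gene's strand. The windows of Pdgfc, Vegfc, Vegfb and Vegfd lie just before the gene start. That of Pdgfd runs past the gene start at 6168363, and its capitals lie inside the gene. The windows are chr3:81036166-81036415 (plus strand), chr9:6168236-6168485 (plus strand), chr8:54077282-54077531 (plus strand), chr19:6987652-6987901 (minus strand) and chrX:164373272-164373521 (plus strand). Capitals mark matches on either strand to TGACNNNGC (the core of the antioxidant response element), TGACTCA (an AP-1 site) or ACGTG (the core of the hypoxia response element). A TGACTCA followed by GC would count under both of the first motifs.
Pdgfc: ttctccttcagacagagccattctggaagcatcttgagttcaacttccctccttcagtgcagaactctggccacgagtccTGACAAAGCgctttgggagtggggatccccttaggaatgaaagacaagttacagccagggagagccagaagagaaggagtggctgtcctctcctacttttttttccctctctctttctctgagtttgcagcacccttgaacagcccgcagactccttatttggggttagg
Pdgfd: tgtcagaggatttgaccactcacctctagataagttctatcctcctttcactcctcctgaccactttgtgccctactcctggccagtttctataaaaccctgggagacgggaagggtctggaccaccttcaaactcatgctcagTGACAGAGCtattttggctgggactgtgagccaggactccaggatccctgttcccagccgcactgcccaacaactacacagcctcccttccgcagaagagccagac
Vegfc: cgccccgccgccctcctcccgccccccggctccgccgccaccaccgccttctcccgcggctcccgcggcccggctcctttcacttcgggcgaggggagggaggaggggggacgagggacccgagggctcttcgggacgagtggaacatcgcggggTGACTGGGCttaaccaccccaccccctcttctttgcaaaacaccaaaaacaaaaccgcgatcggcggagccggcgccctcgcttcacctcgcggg
Vegfb: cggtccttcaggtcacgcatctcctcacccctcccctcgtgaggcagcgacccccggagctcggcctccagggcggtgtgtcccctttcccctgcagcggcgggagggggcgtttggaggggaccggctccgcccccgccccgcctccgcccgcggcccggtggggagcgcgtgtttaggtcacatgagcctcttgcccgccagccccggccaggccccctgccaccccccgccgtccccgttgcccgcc
Vegfd: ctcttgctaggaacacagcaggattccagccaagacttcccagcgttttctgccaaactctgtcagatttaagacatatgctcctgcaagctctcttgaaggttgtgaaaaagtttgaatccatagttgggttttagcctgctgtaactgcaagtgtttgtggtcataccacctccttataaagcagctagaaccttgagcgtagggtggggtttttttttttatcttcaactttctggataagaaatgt
The windows of Pdgfc, Pdgfd and Vegfc each held 1 TGACNNNGC, which 10.2% of all 32851 promoter windows of this length held. Among the windows not printed, 1 of Pdgfa held it (chr5:138994282-138994531, inside the gene). The other Pdgfa window and those of Vegfa and Pdgfra did not. None of the 5 windows held TGACTCA or ACGTG, which 4.46% and 16.6% of all windows held. The Vegfb window was 76.4% G and C and held 4 GC boxes (GGGCGG, in 32.7% of all windows). The Vegfd window was 42.4% G and C, held no GC box and held 1 TATAAA (12.4% of all windows). The Pdgfd window also held 1 TATAAA, and the Vegfc window held 2 GC boxes. The Smad box CAGAC, in 42.2% of all windows, was found 2 times in each of the Pdgfc and Pdgfd windows and not in those of Vegfc, Vegfb and Vegfd. The median window was 52.4% G and C. Of the 2 windows listed for Vegfa, not printed, the one just before the gene start held no ACGTG. The other, chr17:46025164-46025413 (minus strand), lies inside the gene and held 1. These matches describe letters in the windows and say nothing of binding.

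Per kilobase of transcript, the scale on which levels of different genes can be set side by side, Pdgfb had the highest mean in untreated TβRIIflox/flox cells. It averaged 703 ± 85.9 normalized counts per kb (SD, n = 3), Vegfb 551 ± 64.0 and Vegfa 528 ± 54.6. The libraries of Pdgfb overlapped those of Vegfb, and those of Vegfb overlapped those of Vegfa. Pdgfa followed at 409 ± 19.0, apart from its neighbours in the order, and Pdgfc (330 ± 22.9) and Pdgfd (324 ± 29.8) overlapped each other. Vegfd stood at 65.4 ± 7.66, Vegfc at 11.0 ± 1.39 and Pdgfrb at 3.01 ± 0.865, each apart from the next. Pdgfra was at the floor, with 0, 0 and 1 counts.

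In untreated TβRII-/- cells the order was led by the Vegf ligands. Vegfb came first at 754 ± 35.5 normalized counts per kb, followed by Vegfa at 431 ± 20.4, and their libraries did not overlap. Pdgfb (272 ± 3.57) and Pdgfa (258 ± 27.4) came next and overlapped. Vegfd, at 132 ± 5.16, lay above Pdgfd (122 ± 4.10) and Pdgfc (113 ± 3.12). After H2O2 Pdgfc, at 208 ± 7.94, lay above Vegfd (177 ± 18.1) and Pdgfd (135 ± 11.9), while Vegfb stayed first at 1092 ± 32.3. In TβRIIflox/flox cells with H2O2, Pdgfb (799 ± 46.8) and Vegfb (769 ± 24.6) overlapped at the top.

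The 4 Pdgf ligands together summed to 1765 ± 156 normalized counts per kb in untreated TβRIIflox/flox cells and the 4 Vegf ligands to 1156 ± 112. In untreated TβRII-/- cells the sums were 765 ± 29.3 and 1318 ± 57.9. The ratio of the Pdgf to the Vegf sum, which does not depend on the scaling between libraries, was 1.57, 1.48 and 1.54 in the 3 untreated TβRIIflox/flox libraries and 0.578, 0.578 and 0.586 in the 3 untreated TβRII-/- libraries. With H2O2 it was 1.44, 1.47 and 1.47 against 0.513, 0.505 and 0.519. The ratio lay above 1 in every TβRIIflox/flox library and under 1 in every TβRII-/- library. Vegfb supplied 47.7 ± 2.41% of the Vegf sum in untreated TβRIIflox/flox cells and 63.9 ± 2.15% in TβRII-/- cells with H2O2. These sums were formed with the values in view and are given as a description.

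**Figure D1:**
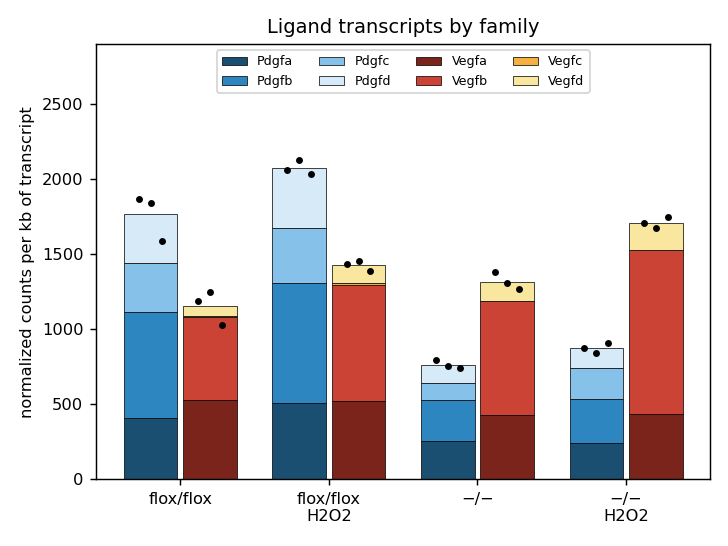
Bars stack the mean normalized counts per kb of transcript of the 4 Pdgf ligands (blue) and the 4 Vegf ligands (red and yellow) in the 4 groups, and points are the sums of the 3 libraries. The Pdgf stack was the taller in both TβRIIflox/flox groups (1765 and 2075) and the shorter in both TβRII-/- groups (765 and 875).

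The first question was how untreated TβRII-/- cells differed from untreated TβRIIflox/flox cells. All 4 Pdgf ligands were lower in TβRII-/- cells, Vegfa was slightly lower, and Vegfb and Vegfd were higher. Pdgfrb and Vegfc passed the filter on low counts only through the TβRIIflox/flox libraries, where they were higher, so that of the 9 genes tested these 2 had to differ. The other 7 were all called, 5 lower and 2 higher, where 64.7% of all genes tested were called (31.4% lower and 33.3% higher). A gene is called where edgeR's quasi-likelihood test gives a p under 0.05 after Benjamini-Hochberg adjustment over all genes tested. With a fold change of at least 1.5 as well, the 4 Pdgf ligands were lower and Vegfd was higher, against 11.8% and 16.3% of all genes. In these 7 the libraries of the genotypes did not overlap, as in 65.3% of all genes. In cultures of 1 cell type, fewer cells that express a gene and less RNA per cell cannot be told apart. The plot of normalized counts by library shows the groups.

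**Figure D2:**
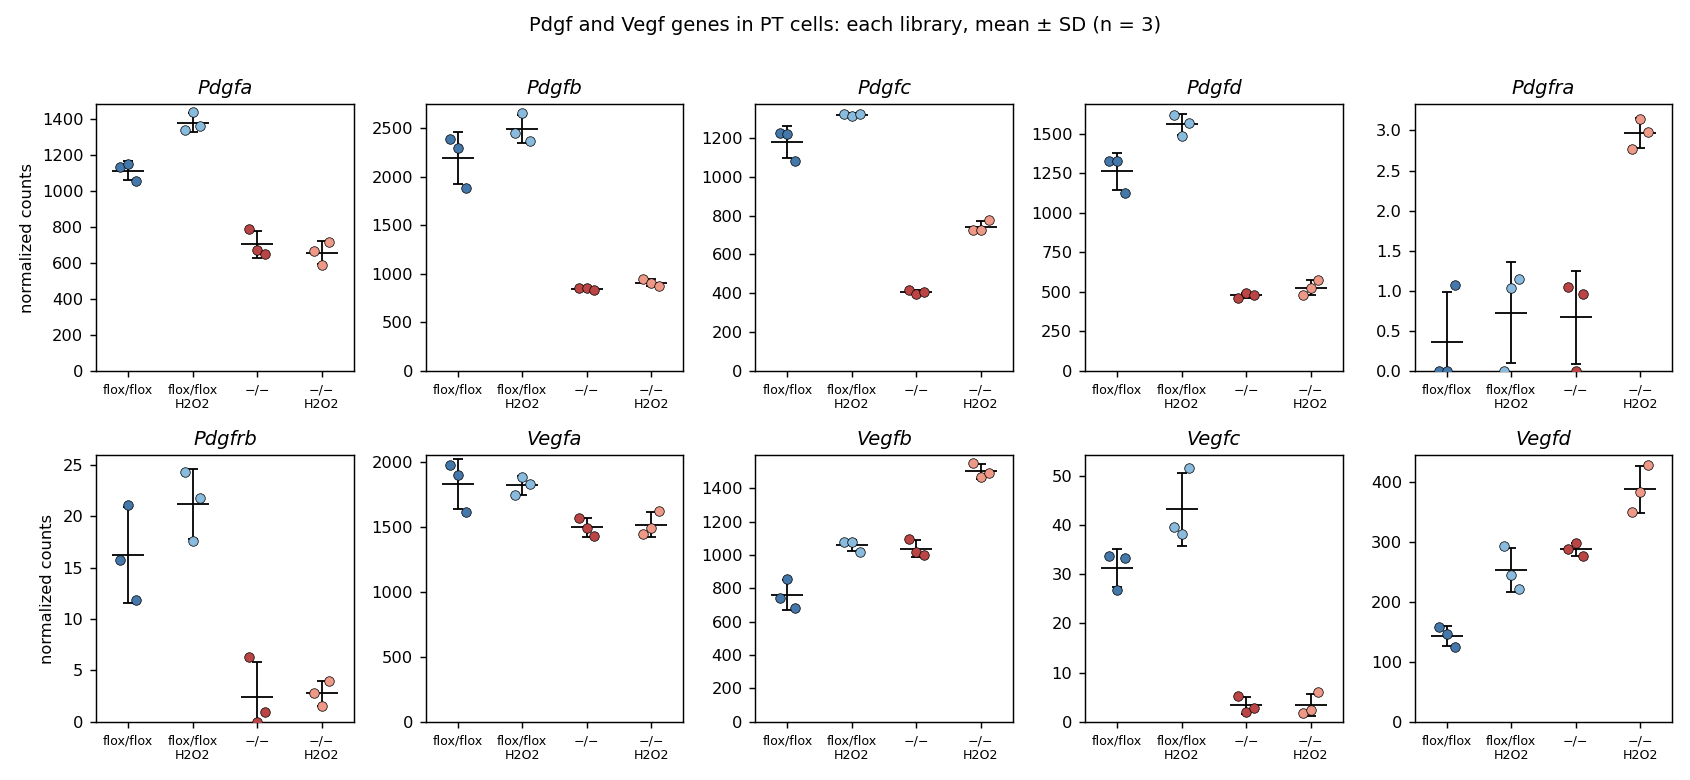
Each panel plots the normalized counts of a gene in the 3 libraries of each group (points) with the mean and SD (bars); axes are linear from 0 and differ between panels. The Pdgf ligands, Pdgfrb and Vegfc sat lower in both TβRII-/- groups and Vegfb and Vegfd higher, while Pdgfra stayed at or under 4 counts in every library.

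Pdgfb, the B chain that recruits pericytes and drives mesangial growth, lies on chromosome 15 (79995865 to 80024614, GRCm38.p6) and is identified in the files by transcript ENSMUST00000000500. Its normalized counts were 2390.2, 2295 and 1886 in untreated TβRIIflox/flox cells and 855, 849 and 834 in untreated TβRII-/- cells. With H2O2 they were 2445, 2653 and 2371 against 947, 902 and 877. Every TβRII-/- library lay under every TβRIIflox/flox library. The log2 fold change between untreated genotypes was −1.37 (SE 0.07, adjusted p = 2.64e-17), and with H2O2 it was −1.45 (adjusted p = 3.45e-18), so that TβRII-/- cells held 0.386 and 0.365 times the level.

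Pdgfd, a latent ligand of Pdgfrβ on chromosome 9 (6168363 to 6534284; ENSMUST00000058692), was also far lower in TβRII-/- cells in both media. Its normalized counts were 1328, 1329 and 1127 in untreated TβRIIflox/flox cells and 458, 489 and 481 in untreated TβRII-/- cells. After H2O2 the values were 1619, 1484 and 1569 against 478, 525 and 571. The genotypes did not overlap in either medium. Its log2 fold changes were −1.41 untreated (SE 0.08, adjusted p = 4.36e-17) and −1.57 with H2O2 (SE 0.07, adjusted p = 9.7e-19).

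Pdgfc, the latent ligand of Pdgfrα and of Pdgfrα/β dimers, lies on chromosome 3 (81036416 to 81214040; ENSMUST00000029652). It had 1229, 1223 and 1084 normalized counts in untreated TβRIIflox/flox cells and 417, 395 and 405 in untreated TβRII-/- cells, a log2 fold change of −1.54 (SE 0.07, adjusted p = 3.53e-19). With H2O2 it had 1326, 1315 and 1324 against 726, 726 and 776, a log2 fold change of −0.83 (SE 0.06, adjusted p = 3.87e-13). The genotypes stayed apart in both media, and TβRII-/- cells held 0.344 times the TβRIIflox/flox level untreated and 0.562 times with H2O2.

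Pdgfa, the A chain and the main ligand of Pdgfrα, lies on chromosome 5 (138976014 to 139000792; ENSMUST00000076095). Its normalized counts were 1129, 1149.5 and 1052 in untreated TβRIIflox/flox cells and 785, 672 and 645 in untreated TβRII-/- cells. Under H2O2 they were 1335, 1436 and 1358 against 664, 589 and 713. It was the Pdgf ligand with the smallest difference between untreated genotypes, a log2 fold change of −0.67 (SE 0.08, adjusted p = 3.18e-09), and with H2O2 the difference was −1.07 (SE 0.07, adjusted p = 2.74e-14).

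The Pdgf receptors were near the floor of detection. Pdgfrb, on chromosome 18 (61045127 to 61085067; ENSMUST00000025522), had 15, 19 and 11 counts in untreated TβRIIflox/flox cells and 6, 0 and 1 in untreated TβRII-/- cells. With H2O2 it had 24, 17 and 19 counts against 3, 2 and 4. Pooled over libraries and scaled for their size, the untreated TβRIIflox/flox level was 7.02 times the TβRII-/- level (95% exact binomial interval 3.14 to 18.4, which covers counting error alone), and with H2O2 7.93 times (3.91 to 18.2). The fitted log2 fold change, given as a description because the filter on low counts fixed that the gene differs, was −2.75 (SE 0.59), and −4.75 without replicate 1 of untreated TβRII-/- cells, which held 6 of that group's 7 counts. With H2O2 it was −2.93 (SE 0.52).

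Pdgfra, on chromosome 5 (75151322 to 75198206; ENSMUST00000000476), had 0, 0 and 1 counts in untreated TβRIIflox/flox cells, 0, 1 and 1 with H2O2, 1, 0 and 1 in untreated TβRII-/- cells, and 3, 4 and 3 with H2O2. No fold is given for it because it was not tested. Both receptors thus stood 2 or more orders of magnitude under the Pdgf ligands per kilobase in untreated TβRIIflox/flox cells, where the ligands averaged from 324 to 703 and Pdgfrb 3.01 normalized counts per kb.

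Vegfa, the ligand of Kdr, lies on chromosome 17 (46016993 to 46032377; ENSMUST00000071648). It had 1973, 1899.5 and 1614 normalized counts in untreated TβRIIflox/flox cells and 1568, 1487 and 1426 in untreated TβRII-/- cells. The H2O2 groups held 1743, 1885 and 1828 against 1441, 1487 and 1622. The highest TβRII-/- library lay just under the lowest TβRIIflox/flox library in each medium. Its log2 fold changes were −0.29 (SE 0.07, adjusted p = 0.000376) and −0.26 (SE 0.07, adjusted p = 0.00104), the smallest of the 9 genes tested and under the median absolute change of all genes, 0.34 untreated and 0.35 with H2O2.

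Vegfb, a ligand of Flt1, lies on chromosome 19 (6982472 to 6987651; ENSMUST00000025914). Its normalized counts were 739.6, 856 and 683 in untreated TβRIIflox/flox cells and 1094, 1020.4 and 1001 in untreated TβRII-/- cells. In the H2O2 groups it was 1080.5, 1076 and 1020.0 against 1553.5, 1468 and 1489.7. Every TβRII-/- library lay above every TβRIIflox/flox library of its medium. The log2 fold changes were 0.45 (SE 0.07, adjusted p = 1.53e-06) untreated and 0.51 (SE 0.07, adjusted p = 7.43e-08) with H2O2.

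Vegfd (also called Figf), a lymphangiogenic ligand on the X chromosome (164373522 to 164402650; ENSMUST00000033751), had the largest increase among the 9 genes tested between untreated genotypes. It stood at 158, 146 and 125 normalized counts in untreated TβRIIflox/flox cells and 288, 298 and 276 in untreated TβRII-/- cells, 2.01 times the level (log2 fold change 1.01, SE 0.12, adjusted p = 5.02e-09). With H2O2 it stood at 292, 245 and 221 against 349.9, 383 and 429 (log2 fold change 0.61, SE 0.10, adjusted p = 4.25e-06). The groups did not overlap in either medium.

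Vegfc, the other lymphangiogenic ligand, was at 2 to 6 counts in each TβRII-/- library. It lies on chromosome 8 (54077532 to 54186454; ENSMUST00000033919) and had 32, 24 and 31 counts in untreated TβRIIflox/flox cells and 5, 2 and 3 in untreated TβRII-/- cells. With H2O2 it had 39, 37 and 45 counts against 2, 3 and 6. The pooled TβRIIflox/flox level was 9.50 times the TβRII-/- level untreated (95% exact binomial interval 4.93 to 20.5) and 13.1 times with H2O2 (7.06 to 26.9). The fitted log2 fold changes, a description since the filter on low counts fixed that it differs, were −3.20 (SE 0.42) and −3.66 (SE 0.39), the latter −4.26 without replicate 3 of TβRII-/- cells with H2O2.

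With H2O2 in both genotypes, the calls had the same directions as in untreated cells. The 7 genes other than Pdgfrb and Vegfc were again called, 5 lower and 2 higher, where 66.4% of all genes were called (31.3% lower and 35.1% higher). A fold change of at least 1.5 was reached by the 4 Pdgf ligands downwards and by Vegfd upwards, where 13.4% and 17.3% of all genes reached it. These 7 again had no overlap between genotypes, as 71.0% of all genes.

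**Figure D3:**
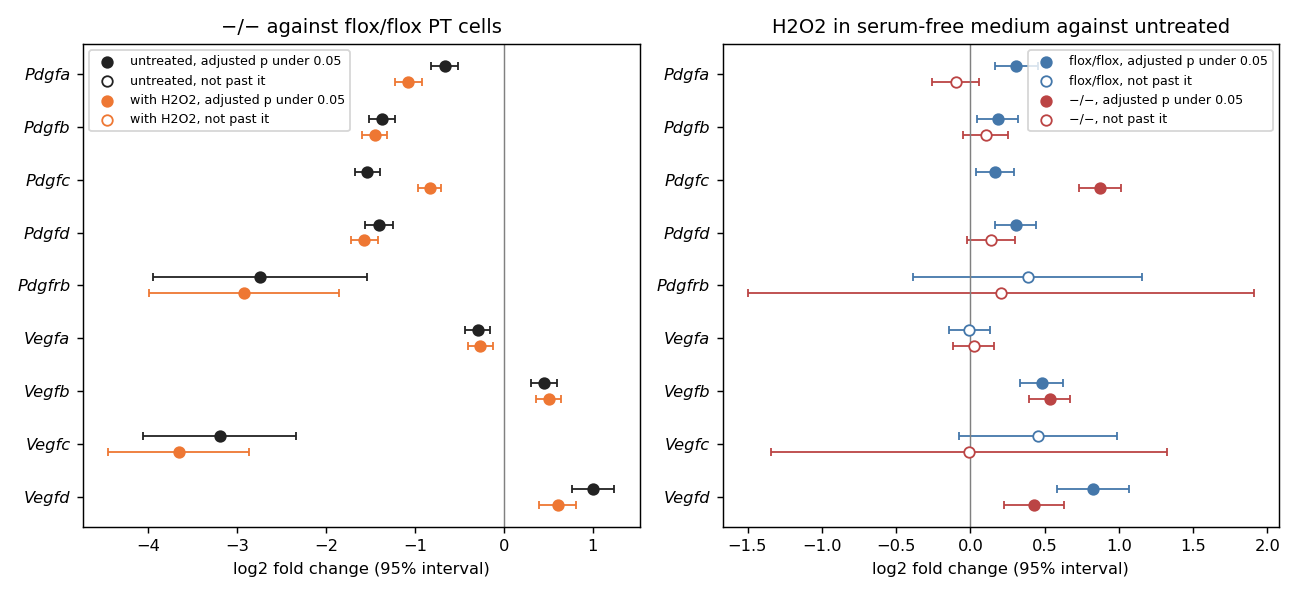
The left panel plots the log2 fold change of TβRII-/- against TβRIIflox/flox cells without and with H2O2, and the right panel that of H2O2 in serum-free medium against untreated cells in each genotype. Bars are 95% intervals, filled points have an adjusted p under 0.05, and Pdgfra was not tested. On the left, Pdgfrb and Vegfc passed the filter through the TβRIIflox/flox libraries and had to differ. On the right, the intervals of Pdgfc in the 2 genotypes lie apart (0.04 to 0.29 and 0.73 to 1.02), with the larger rise in TβRII-/- cells.

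The next question was how the genes changed with H2O2 in serum-free medium in each genotype. In TβRIIflox/flox cells 6 of the 9 genes tested rose and none fell, where 41.6% of all genes were called (21.0% higher and 20.5% lower). Vegfd rose most, 1.77-fold (log2 fold change 0.83, SE 0.12, adjusted p = 1.48e-06), followed by Vegfb at 1.40-fold (0.48, SE 0.07, adjusted p = 2.25e-06). Pdgfa rose 1.24-fold (log2 0.31, SE 0.07, adjusted p = 0.000815) and Pdgfd 1.24-fold (log2 0.30, SE 0.07, adjusted p = 0.000631). Vegfd was the gene among them that reached a fold change of 1.5, as 5.68% of all genes did upwards. The libraries of the media did not overlap for 6 genes, Pdgfa, Pdgfc, Pdgfd, Vegfb, Vegfc and Vegfd, as in 47.4% of all genes.

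Pdgfb and Pdgfc passed the threshold in TβRIIflox/flox cells by little, with log2 fold changes of 0.19 (SE 0.07, adjusted p = 0.0280) and 0.17 (SE 0.06, adjusted p = 0.0332). Both calls were lost without replicate 3 of untreated TβRIIflox/flox cells, where the adjusted p-values were 0.262 and 0.182, and without replicate 2 of TβRIIflox/flox cells with H2O2 (0.159 and 0.0640). The Pdgfc call was also lost without replicate 1 or without replicate 3 of TβRIIflox/flox cells with H2O2 (0.0583 and 0.0558). Both were lost as well with only the groups compared in the fit (0.0616 and 0.0708). The Pdgfb call was lost with counts summed over transcripts (0.0638) and the Pdgfc call with no filter on low counts (0.0769).

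In TβRII-/- cells 3 of the 9 genes rose with H2O2 and none fell, where 39.6% of all genes were called (20.5% higher and 19.1% lower). Pdgfc rose 1.83-fold (log2 fold change 0.87, SE 0.07, adjusted p = 1.55e-11), and 4.56% of all genes passed a fold of 1.5 upwards. Vegfb rose 1.45-fold (log2 0.53, SE 0.07, adjusted p = 1.38e-07) and Vegfd 1.35-fold (log2 0.43, SE 0.10, adjusted p = 0.000922). Pdgfa had a log2 fold change of −0.10 (95% interval −0.26 to 0.06), Pdgfb 0.10 (−0.05 to 0.26) and Pdgfd 0.14 (−0.02 to 0.30), none past the threshold. The libraries of the media did not overlap for 4 genes, Pdgfb, Pdgfc, Vegfb and Vegfd, as in 52.1% of all genes.

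Vegfa did not pass the threshold with H2O2 in either genotype. Its log2 fold change was −0.01 in TβRIIflox/flox cells (95% interval −0.15 to 0.13, adjusted p = 0.939) and 0.02 in TβRII-/- cells (−0.12 to 0.16, adjusted p = 0.828), and in TβRIIflox/flox cells its sign changed with the scaling. Pdgfrb and Vegfc were counted too thinly to tell: for Vegfc the 95% interval of the log2 fold change was −0.08 to 0.99 in TβRIIflox/flox and −1.34 to 1.32 in TβRII-/- cells, and for Pdgfrb it was −0.38 to 1.16 and −1.50 to 1.91.

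The change with H2O2 was compared between genotypes by the interaction, which 10.2% of all genes passed, 3.90% with a positive and 6.28% with a negative difference. Pdgfc and Pdgfa passed it, in opposite directions. The rise of Pdgfc was larger in TβRII-/- cells by 0.71 on the log2 scale (SE 0.09, adjusted p = 4.44e-06). The change of Pdgfa was smaller there by 0.41 (log2 difference −0.41, SE 0.10, adjusted p = 0.0108). It rose in TβRIIflox/flox cells and did not pass the threshold in TβRII-/- cells. The Pdgfa interaction had an adjusted p of 0.0557 without replicate 1 of untreated TβRII-/- cells and 0.0589 without replicate 2 of TβRII-/- cells with H2O2.

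For the other genes the interaction did not pass the threshold. Vegfd rose less in TβRII-/- cells by 0.40 (log2 difference −0.40, 95% interval −0.72 to −0.08, adjusted p = 0.103), with an adjusted p of 0.0358 when replicate 1 of untreated TβRIIflox/flox cells was left out and of 0.0455 when replicate 3 of TβRIIflox/flox cells with H2O2 was. For Vegfb the difference between its 2 rises was 0.05 (95% interval −0.15 to 0.25), for Vegfa 0.03 (−0.17 to 0.23), for Pdgfb −0.08 (−0.29 to 0.12) and for Pdgfd −0.17 (−0.38 to 0.05). The 2 contrasts with H2O2 and the 2 contrasts of genotypes share libraries, so that their values are set side by side and not counted as separate evidence.

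The receptors and coreceptors of the Vegf family were measured next to their ligands. Of 5 such genes 4 were tested, and all 4 were called between untreated genotypes, 3 higher and 1 lower in TβRII-/- cells, where 64.7% of all genes were called (33.3% higher and 31.4% lower). In fits without 1 library, between 3 and 5 of the 5 genes were called in this comparison. Kdr (VEGFR2), the main endothelial Vegfa receptor, had 133, 130.2 and 124 normalized counts in untreated TβRIIflox/flox cells and 584, 459 and 479.6 in untreated TβRII-/- cells, a log2 fold change of 1.98 (adjusted p = 5.82e-16). With H2O2 the values were 22.3, 20.7 and 21.8 against 46.2, 38.5 and 59.7. Kdr fell with H2O2 to 0.168 times the untreated level in TβRIIflox/flox cells (log2 −2.57, adjusted p = 2.5e-12) and to 0.0939 times in TβRII-/- cells (log2 −3.41, adjusted p = 2.48e-19), and the difference between these falls was −0.84 (adjusted p = 0.0446). Kdr and Nrp1 were the 2 of the 4 that passed the interaction, against 10.2% of all genes, and between 1 and 2 passed it in fits without 1 library. Kdr was higher in TβRII-/- cells in both media and fell in both genotypes, beside a Vegfa level that did not pass the threshold with H2O2. The defining endothelial markers Pecam1 and Emcn had at most 3 counts in every library, and the 7 endothelial markers, Kdr among them, summed to 196 to 203 normalized counts in untreated TβRIIflox/flox and 618 to 718 in untreated TβRII-/- libraries and to 113 to 121 and 186 to 206 with H2O2.

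Nrp2, a coreceptor for Vegfc and Vegfd, was lower in TβRII-/- cells, at 4278, 3875 and 3526 normalized counts in untreated TβRIIflox/flox cells and 1639, 1570.3 and 1734 in untreated TβRII-/- cells (log2 −1.24, adjusted p = 4.89e-17). Of these ligands Vegfc was lower there as well and Vegfd was higher. Nrp1, a coreceptor for Vegfa, was higher (2393, 2178 and 2021 against 3485.5, 3232 and 3171; log2 0.58, adjusted p = 1.5e-09) and rose with H2O2 in both genotypes, 1.94-fold in TβRIIflox/flox and 1.46-fold in TβRII-/- cells (adjusted p = 1.27e-13 and 2.7e-08). Flt4, the receptor of Vegfc and Vegfd, was 1.17-fold higher in untreated TβRII-/- cells (adjusted p = 0.0152). Its log2 fold change of 0.225 was under the median absolute change of all genes, 0.335. Flt1, the receptor of Vegfb, had 1 to 18 counts per library and was not tested. Pgf, the remaining Vegf family ligand, had 1, 6 and 2 counts in untreated TβRIIflox/flox and 9, 12 and 10 in untreated TβRII-/- cells. With H2O2 it had 11, 9 and 9 against 14, 16 and 19. It passed the filter on low counts through the TβRII-/- libraries, so its difference between genotypes is given as a description. Its call between untreated genotypes was lost without replicate 1 or replicate 3 of untreated TβRIIflox/flox cells.

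**Figure D4:**
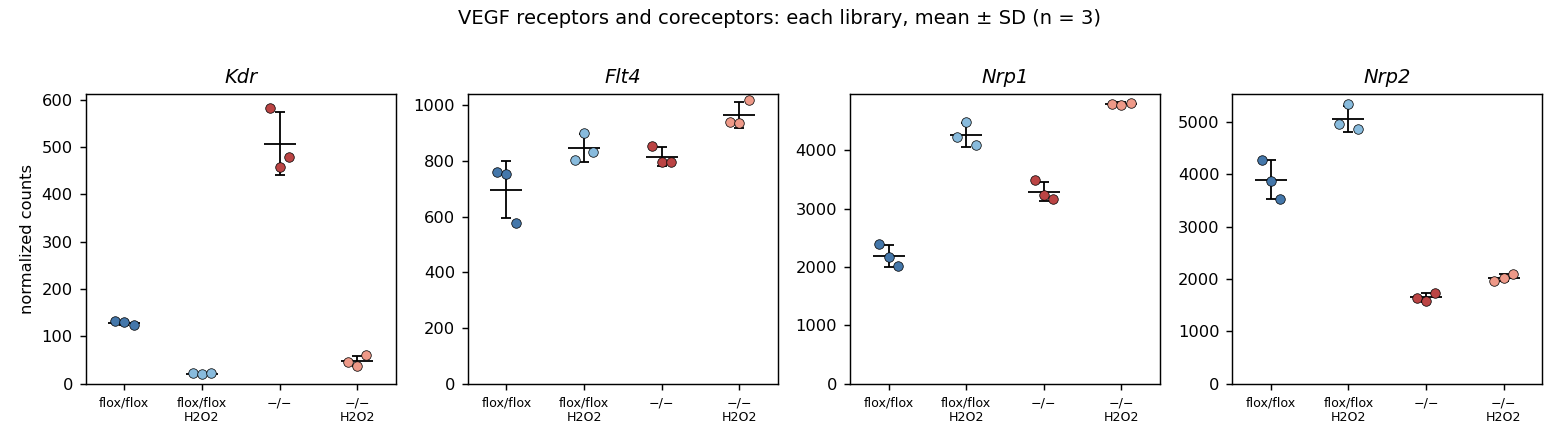
Each panel plots the normalized counts of a Vegf receptor or coreceptor in the 3 libraries of each group (points) with the mean and SD (bars), on linear axes from 0. Kdr stood at 459 to 584 in untreated TβRII-/- libraries and at 20.7 to 59.7 in all libraries with H2O2.

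Among 9 genes that process Pdgf or Vegf ligands, 6 of the 8 tested were called between untreated genotypes, 4 higher and 2 lower in TβRII-/- cells. Of all genes 64.7% were called, 33.3% higher and 31.4% lower. St14 (matriptase), which can activate Pdgfd, averaged 317 normalized counts in untreated TβRIIflox/flox and 2429.7 in untreated TβRII-/- cells (log2 2.94, adjusted p = 2.28e-27). Plat, the tissue plasminogen activator that opens Pdgfc, averaged 4348 and 9318.5 (log2 1.10, adjusted p = 9.68e-16). With H2O2 Plat rose 2.01-fold in TβRIIflox/flox cells (adjusted p = 1.04e-13) and was 1.03-fold in TβRII-/- cells (adjusted p = 0.588), and this difference passed the interaction test (log2 −0.96, adjusted p = 2.23e-08).

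Ccbe1, a cofactor of the cleavage of Vegfc, fell with H2O2 in both genotypes, by 0.96 on the log2 scale in TβRIIflox/flox and by 1.33 in TβRII-/- cells (adjusted p = 4.52e-11 and 5.99e-14). Pcsk5, a proprotein convertase, rose 2.64-fold in TβRIIflox/flox cells with H2O2 (adjusted p = 0.000863). Ctsd, the lysosomal cathepsin D that can cleave Vegfc and Vegfd, was the most abundant of the list, from 17328 normalized counts in untreated TβRIIflox/flox to 28423 in TβRII-/- cells with H2O2. In TβRIIflox/flox cells 6 of the 8 were called with H2O2, 5 higher and 1 lower, and in TβRII-/- cells 2 of the 8, 1 higher and 1 lower, against 41.6% and 39.6% of all genes.

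The 4 tested genes of 6 that bind Pdgf or Vegf outside the cell were all lower in untreated TβRII-/- cells, as were 31.4% of all genes. Fn1 (fibronectin) averaged 103000 ± 17307 normalized counts in untreated TβRIIflox/flox and 9185 ± 455 in untreated TβRII-/- cells (log2 −3.49, adjusted p = 1.83e-24). Hspg2 (perlecan) averaged 24905 against 11585 (log2 −1.10, adjusted p = 9.88e-12), and Thbs1 (thrombospondin 1), the most abundant over all groups, 77504 against 49196 (log2 −0.66, adjusted p = 2.8e-08).

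Regulators and targets of the hypoxia response, of which Vegfa is a member, were followed to see whether they moved with it. Of 8 oxygen-sensing genes 5 were called between untreated genotypes, 3 higher and 2 lower, against 64.7% of all genes. Egln3, a prolyl hydroxylase and itself a hypoxia target, was 11.5 in untreated TβRIIflox/flox and 221 in untreated TβRII-/- cells (log2 4.24), whereas Hif1a was 3134 and 2899 (adjusted p = 0.111). Egln3 had 7 to 13 counts in untreated TβRIIflox/flox libraries and 5 to 8 with H2O2. It passed the filter on low counts only through the TβRII-/- libraries, so its difference, among the 5 calls, is given as a description. Of 8 further hypoxia targets 7 were tested, and 5 were higher in untreated TβRII-/- cells, where Vegfa was lower and 33.3% of all genes were higher. Adm, 1 of these, passed the filter through the TβRII-/- libraries alone and had to differ. With H2O2 6 of these 7 fell in TβRIIflox/flox cells and 6 in TβRII-/- cells, against 20.5% and 19.1% of all genes. Ldha (lactate dehydrogenase A) fell by 0.89 and by 0.85 (adjusted p = 1.58e-12 and 3.71e-12), and Ankrd37 fell by 0.95 and by 0.99 (adjusted p = 0.0148 and 0.00202). Adm had 0 or 1 count in each TβRIIflox/flox library and 6 to 16 in each TβRII-/- library. Vegfa thus did not pass the threshold in media where most of these genes fell.

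Of 13 transducers that Pdgf and Vegf receptors share with other receptor tyrosine kinases, 7 were called between untreated genotypes, 1 higher and 6 lower, against 64.7% of all genes. The adaptor Shc1 was the 1 that was higher (2597 against 4511, log2 0.80, adjusted p = 1.3e-13), and the ubiquitin ligase Cblb was lower (2155 against 1267, log2 −0.77, adjusted p = 1.09e-11). The median log2 fold change of the 13 was −0.09, beside 0.01 over all genes.

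Each gene was also set beside its neighbours on the chromosome, and Pdgfa and Vegfd moved in the direction of theirs. For each tested gene, up to 12 tested neighbours on each side were taken and the median log2 fold change of all genes was subtracted. The 24 neighbours of Pdgfa had a median of −0.76 between untreated genotypes, close to the −0.67 of Pdgfa itself, and 3 of the 24 lay above the median of all genes. The 24 neighbours of Vegfd had a median of 0.42, and 24 of the 24 lay above the median of all genes, where Vegfd had 1.01. The other tested genes of the whole X chromosome had a median of 0.02, and those of the whole of chromosome 5, where Pdgfa lies, had 0.26. The part of these regional shifts in the differences of Pdgfa and Vegfd was not tested.

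Pdgfb stood apart from its surroundings: its 24 neighbours had a median of 0.38 and Pdgfb a log2 fold change of −1.37. The other tested genes of the whole of chromosome 15 had a median of 0.35, near that of these neighbours. On chromosome 18, where Pdgfrb lies, the median was −0.33. The part of these chromosome-wide medians in the differences was not tested. The neighbours of Pdgfc (median −0.07), of Pdgfd (21 genes, −0.11), of Pdgfrb (−0.21), of Vegfa (0.005) and of Vegfc (−0.23) lay nearer to the median of all genes than these genes did. Those of Vegfb had a median of 0.22 beside the 0.45 of Vegfb.

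**Figure D5:**
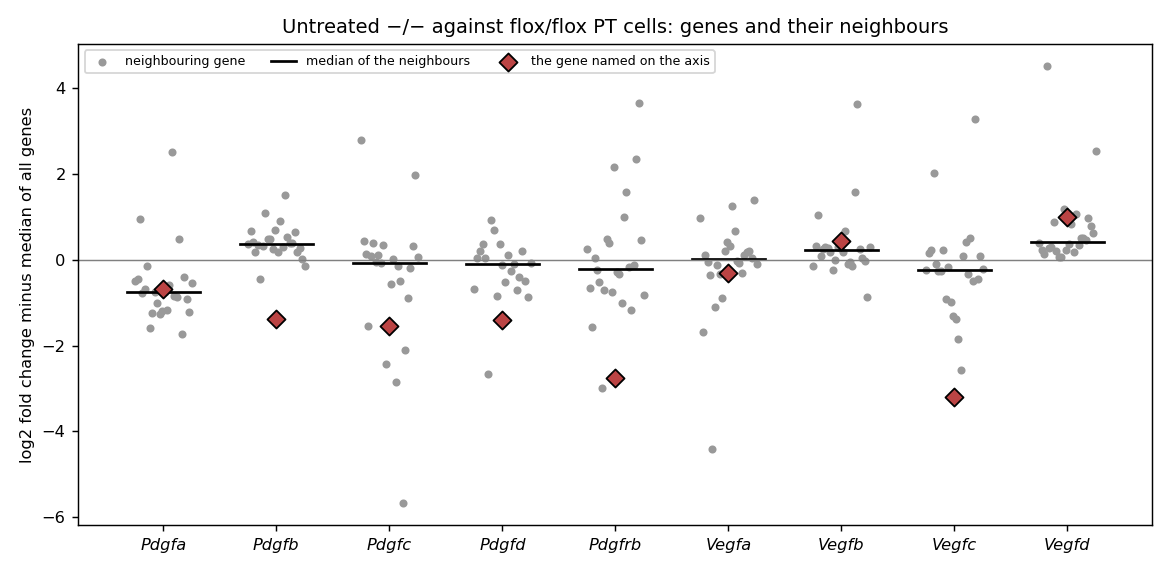
Grey points are the log2 fold changes of the neighbouring genes between untreated TβRII-/- and TβRIIflox/flox cells, minus the median of all genes, black bars their median, and red diamonds the gene named on the axis. The diamonds of Pdgfb, Pdgfc, Pdgfd, Pdgfrb and Vegfc lie well under the bar of their neighbours, while that of Pdgfa lies on it.

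The count files hold 10 transcripts of Vegfa, and Vegfa-201 had from 85.9% to 89.3% of the counts of the representative Vegfa-202 in the 4 groups. Pdgfc-202 had from 86.1% to 88.1% of Pdgfc-201, and Vegfb-202 from 82.6% to 85.6% of Vegfb-201. Reads that overlap several transcripts are counted on each, so these shares do not measure isoforms apart and the transcripts of a gene cannot serve as separate checks. With counts summed over transcripts, the Pdgfb call with H2O2 in TβRIIflox/flox cells was lost (adjusted p = 0.0638), and the Vegfa change with H2O2, near 0, changed sign in both genotypes. In GENCODE M39, an annotation on a later build, exons of Pdgfa, Pdgfc, Vegfa and Vegfc overlap a gene on the opposite strand and Pdgfra a microRNA, none of which is in the files. The libraries were made with a stranded kit per the study's methods, but whether the counting used the strand is not given in the sources used here, so it is not known whether reads from those partners were kept out.

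The genes most like each ligand over the 12 libraries were searched among 11042 protein-coding genes, and Pearson's r is given as a description over 4 groups of 3 libraries, so that it follows the differences between groups. Pdgfb was most like Pcdhgc3 and Ttyh3 (r = 0.998 for both), Pdgfd most like Col5a1 (0.997) and Tspan6 (0.996), and Pdgfc most like Ago1 (0.992) and Phf2 (0.987). Pdgfa was most like Mogs (0.994) and Fads3 (0.993), and Vegfc most like Pabpn1 (0.993) and Crebzf (0.989). Vegfd was most like Vsig10 (0.994) and Wnt16 (0.986), Vegfb most like Ell3 and Irf1 (0.980 for both), Vegfa most like 2410002F23Rik (0.955) and Slc66a2 (0.945), and Pdgfrb most like Klc2 (0.955) and Rexo1 (0.952).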

How the data were processed

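Total RNA of 12 samples was made into mRNA libraries and sequenced, 3 libraries in each of 4 groups taken from the labels. The authors removed adapters with fastp, used STAR for alignment to GRCm38.p6 and the GENCODE M23 annotation, and obtained counts with featureCounts; the kit was stranded and the strand setting of the counting is not given in the sources used here. Whole-number, unnormalized counts per transcript were deposited by the authors, and a read that overlaps several transcripts is counted on each. Of 106332 transcripts, 104820 were matched by Ensembl identifier to GENCODE M39, which gave 25514 genes. The 1512 unmatched transcripts held 1.22% to 1.28% of a library's counts and were left out. A gene was represented by its transcript with the highest summed count, whose length in M39 was used for levels per kilobase. Transcript totals ran from 51387170 to 69231661 per library.

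Testing used edgeR 4.0.16 (TMM, filterByExpr by group, glmQLFit and glmQLFTest over group means) under R 4.3.3 with limma 3.58.1, and p-values were adjusted by Benjamini-Hochberg over the 12971 genes tested. The study's methods name DESeq2 and limits at p 0.01 and 1.5-fold; DESeq2 1.42.0 and these limits were alternatives, beside DESeq2 size factors, other filters on low counts, the replicate number as a block, sums over transcripts, fits of only the groups compared, and leaving out each library. The 10 genes and the pathway lists were chosen with earlier results of these data known. Members of the pathway lists were named where they had the largest change among called genes of their list in a contrast, the highest mean count, or were receptors. Every pair of replicates differed by more than sampling noise (chi-square per gene 3.64 to 12.7). In simulated counts of 12760 genes, with 195 genes changed 2-fold between untreated genotypes, edgeR found 184 and made 10 false calls. In the data 64.7% of all genes were called in this comparison, a far larger share than was changed in the simulation. The simulation therefore does not give the error rate of the calls reported here. Intervals of pooled counts are exact binomial intervals and cover counting error alone. Promoter windows came from RefSeq; 8 of the 10 genes matched. Tables were joined with Python 3.11.15.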

Additional observations from a re-analysis of the deposited data

Results flagged for a closer look

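The change of Pdgfc with H2O2 differed between the genotypes by 0.71 on the log2 scale (interaction, edgeR, adjusted p = 4.44e-06). In TβRII-/- cells its 3 libraries moved from 395 to 417 normalized counts untreated to 726 to 776 with H2O2, and in TβRIIflox/flox cells from 1084 to 1229 to between 1315 and 1326. The change of Pdgfa differed by −0.41 (adjusted p = 0.0108), with 589 to 713 normalized counts in TβRII-/- cells with H2O2 beside 645 to 785 untreated, and 1335 to 1436 beside 1052 to 1149.5 in TβRIIflox/flox cells.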

How the results depend on the processing

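Over 45 member values and 618 alternative values, 577 kept their direction and their side of the threshold, 12 lost the threshold, 2 gained it and 27 changed sign, all of the last with an adjusted p over the threshold. The study's limits, an unadjusted p under 0.01 with a fold of 1.5, left 1 gene called with H2O2 in TβRIIflox/flox cells and 1 in TβRII-/- cells. Leaving out each library gave 9 to 9 genes called between genotypes in both media, 4 to 6 with H2O2 in TβRIIflox/flox cells, 3 to 3 in TβRII-/- cells and 1 to 3 for the interaction. The 9 include Pdgfrb and Vegfc, which had to differ between genotypes. With every library in the fit, 64.7% of all genes were called between untreated genotypes and 66.4% with H2O2. The shares were 41.6% and 39.6% for H2O2 in TβRIIflox/flox and TβRII-/- cells and 10.2% for the interaction. A leave-out changed the sign of 7 values near 0, which ranged from −0.086 to 0.061 for Vegfa with H2O2 in TβRIIflox/flox cells, from −0.028 to 0.057 in TβRII-/- cells and from −0.057 to 0.089 in the interaction, from −0.37 to 2.21 for Pdgfrb with H2O2 in TβRII-/- cells and from −0.76 to 1.83 in the interaction, from −0.61 to 0.43 for Vegfc with H2O2 in TβRII-/- cells, and from −0.064 to 0.10 for Vegfb in the interaction. Vegfa with H2O2 in TβRIIflox/flox cells was 0.005 with DESeq2 size factors, 0.005 with DESeq2, 0.004 with at least 10 counts in every library and 0.006 with sums over transcripts. With those sums Vegfa was −0.020 with H2O2 in TβRII-/- cells and −0.025 in the interaction. The cause of these changes was not tested. Pdgfrb and Vegfc could not be fitted under the minimum of 10 counts, which left 7 genes called between genotypes. With 3 libraries in a group, single-digit counts of Pdgfrb, Vegfc and Pdgfra limit what can be told of them.

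With the replicate number as a block, 9, 9, 6, 3 and 2 genes were called in the 5 comparisons, as without it, and Vegfc with H2O2 in TβRII-/- cells was 0.007. The 9 again include Pdgfrb and Vegfc, which had to differ. Same-numbered libraries did not deviate together: over 18 pairs of same-numbered libraries the correlation of deviations was −0.101 to 0.058, so the numbers were not taken as pairs. The block changed no call of the 10 genes, and over all genes it gave 8287 calls between untreated genotypes and 1202 in the interaction.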
